A study of Homo sapiens with 36 samples.

Results

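The brush border is the carpet of microvilli on the lumen side of an intestinal epithelial cell, and 10 of its transcripts were followed here through all 18 messenger RNA libraries of the series. They were SI, LCT, MGAM, TREH, ALPI, DPP4, ANPEP, MEP1A, SLC15A1 and VIL1, taken by gene symbol from a count table of 60591 genes, and every symbol matched a single row. SI (sucrase-isomaltase), MGAM (maltase-glucoamylase), LCT (lactase) and TREH (trehalase) split the sugars and starch fragments of a meal, ALPI is the intestinal alkaline phosphatase, and DPP4, ANPEP (aminopeptidase N) and MEP1A (the alpha subunit of meprin A) are peptidases held at the membrane. SLC15A1 (PEPT1) carries dipeptides and tripeptides into the cell with protons, and VIL1 encodes villin, which bundles the actin core of the microvillus. These transcripts accumulate as an enterocyte matures and leaves the crypt, under factors such as CDX2, HNF4A and GATA4, and Caco-2 cells are widely used because they acquire several of them when left confluent.

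The libraries came from 2 human colorectal carcinoma lines, Caco-2 and HT-29, each as control, after 300 µM cobalt(II) chloride (CoCl2) and after 5 µM of an oxyquinoline derivative (OD), with 24 h of exposure and 3 replicates in each of the 6 groups. Both agents are used to stabilise the hypoxia-inducible factors (HIF) under normal oxygen. The Caco-2 cells had been left to differentiate for 21 days before treatment, and no such period is given for HT-29, and in a comparison between the lines the culture state therefore cannot be told apart from the line. The control and OD cultures received DMSO at 0.5 µl per ml. The sources differ on whether the CoCl2 cultures received it too, so a part of the solvent in the CoCl2 differences was not tested. In bulk libraries of this kind, fewer cells of a type and less RNA per cell cannot be told apart.

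Total gene counts ran from 12925719 to 22332639 per library, and no pair of replicates agreed within sampling noise. Library composition moved with treatment: the mean scaling factor of the trimmed mean of M values (TMM) was 1.12, 0.894 and 1.00 in control, CoCl2 and OD libraries of Caco-2, and 1.19, 0.770 and 1.09 in those of HT-29. Scaling by library size alone shifted the median log2 change of all genes by -0.32 (CoCl2) and -0.15 (OD) in Caco-2 and by -0.63 and -0.14 in HT-29; where it turns the direction of one of the 10 genes, that value is given beside the result. Of 9 core hypoxia targets, all 9 rose with each agent in Caco-2, against 9.13% (CoCl2) and 4.43% (OD) of all genes tested. The paper names these 9 as responding in all its Caco-2 conditions, so the Caco-2 count is no independent evidence. In HT-29, 8 rose with CoCl2 (17.4% of all genes) and 5 with OD (9.50%). All 10 enterocyte markers of a separate list had over 3 counts in every Caco-2 control library, against 5 of 10 in HT-29 controls. In HT-29, the lipid-handling markers APOA4, APOB, APOC3, MTTP, RBP2 and FABP2 were too low to be tested, whereas FABP1 and APOA1 were tested.

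Promoter sequence bears on these genes because several of them are textbook targets of CDX factors, while HIF binds a short core that contains CGTG. RefSeq promoter windows of the 250 bases before the start were found for 7 of the 10 genes, 8 windows in all; LCT, VIL1 and MEP1A had none. Of the 8, 3 windows are shown: SI and MGAM, which code for related enzymes, and SLC15A1, the member that rose with both agents in Caco-2. Capitals mark ACGTG or GCGTG (HIF cores) and TTTAT (a CDX core) on either strand, so that a match on the opposite strand appears as its reverse complement.
SI, chr3:165078497-165078746, GRCh38.p14, minus strand: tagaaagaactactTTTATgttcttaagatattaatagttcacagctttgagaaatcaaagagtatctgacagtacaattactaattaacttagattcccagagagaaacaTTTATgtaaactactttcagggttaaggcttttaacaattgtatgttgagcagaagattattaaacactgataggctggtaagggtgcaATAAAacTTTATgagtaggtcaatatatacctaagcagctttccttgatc
MGAM, chr7:141995629-141995878, GRCh38.p14, plus strand: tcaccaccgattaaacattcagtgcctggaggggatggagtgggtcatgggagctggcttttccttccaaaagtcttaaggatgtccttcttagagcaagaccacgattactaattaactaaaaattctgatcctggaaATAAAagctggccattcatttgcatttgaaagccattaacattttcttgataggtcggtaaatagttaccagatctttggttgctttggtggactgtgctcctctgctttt
SLC15A1, chr13:98752673-98752922, GRCh38.p14, minus strand: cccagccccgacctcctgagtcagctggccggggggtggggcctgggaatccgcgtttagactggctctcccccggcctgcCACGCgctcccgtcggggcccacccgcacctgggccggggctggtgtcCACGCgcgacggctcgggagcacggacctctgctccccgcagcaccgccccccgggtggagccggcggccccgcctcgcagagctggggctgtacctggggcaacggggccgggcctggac

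The SI window was AT-rich, at 31.6% GC, and held 4 TTTAT matches, whereas the SLC15A1 window was 77.6% GC and held 2 GCGTG matches and no TTTAT. SI and MGAM shared the 14-base stretch ATTACTAATTAACT, which begins 173 bases before the SI start and 144 bases before the MGAM start and occurs in 2 of 35114 promoter windows of the same length. Over all 35114 windows, ACGTG was present in 18.5%, GCGTG in 32.2% and TTTAT in 32.7%; among the 8 windows of these genes it was 3, 3 and 2. The ACGTG matches fell in the TREH, DPP4 and ALPI windows, and those of DPP4 are the 2 strands of 1 palindrome. Beside SLC15A1, GCGTG was held by the TREH window and an ANPEP window. Unlike SLC15A1, TREH and ANPEP had negative log2 changes against control in Caco-2 cells. These were -1.94 and -0.38 under CoCl2, and -0.86 and -0.29 under OD. GATAA, searched for GATA factors, was in none of the 8 windows against 20.4% of all windows, and CAAAG, an HNF4 core, in 5 against 42.1%. The MGAM start used for its window lies inside the annotated span of the gene, which begins at chr7:141907813. A match in these letters is a description of the sequence and not a binding site.

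In GRCh38, SI lies at chr3:164978898-165078496 on the minus strand, SLC15A1 at chr13:98683801-98752672 (minus), ANPEP at chr15:89784895-89815401 (minus), ALPI at chr2:232456125-232460753 (plus) and MEP1A at chr6:46793389-46839778 (plus), and none of these 5 genes overlaps another annotated gene. The other 5 share exon bases with a gene on the opposite strand: VIL1 (chr2:218419121-218453295, plus) with USP37, TREH (chr11:118657316-118679690, minus) with PHLDB1, DPP4 (chr2:161992245-162074394, minus) with DPP4-DT, MGAM (chr7:141907813-142106747, plus) with CLEC5A and LCT (chr2:135787850-135837184, minus) with LCT-AS1. Whether strand was used in counting is not given in the sources used here. LCT-AS1 and CLEC5A were at or near 0 in every group, with no group mean over 0.0249 CPM (read counts scaled to the TMM-adjusted library size), and DPP4-DT stayed at or below 1.24 CPM in the group means. USP37, at 24.6 to 54.1 CPM in the group means, rose in Caco-2 with CoCl2 and OD (log2 1.01 and 1.14), and its values in HT-29, where VIL1 fell, were 0.49 and -0.07. PHLDB1 exceeded TREH many times over, and its values are given with those of TREH.

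Per transcript length, the 10 genes spanned a wide range in Caco-2 control cells. In RPKM, a read count corrected for gene length and TMM-adjusted library size, DPP4 led at 172 (range 166 to 181), followed by VIL1 at 114, MEP1A at 91.6 and SI at 46.3. ALPI at 6.69, SLC15A1 at 5.19, ANPEP at 3.92 and LCT at 1.36 formed a middle tier, and MGAM at 0.554 and TREH at 0.411 were the lowest. Neighbours in this order did not overlap among the 3 replicates, other than MGAM and TREH. The first place of DPP4 rests on a length of 4678 bases, recovered from the authors' deposited values. GENCODE gives it 14432 bases, and by that longer length DPP4 would stand below VIL1 in the controls of both lines. The order of the leading genes differed under treatment: VIL1 stood above MEP1A in control cells and below it with CoCl2 (63.2 against 101 RPKM) and with OD (124 against 150 RPKM).

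HT-29 control cells held less of every one of the 10 transcripts. A gene was called at a false discovery rate (FDR) under 0.05 and an absolute log2 fold change over 1. Called lower were 10 of 10, against 24.2% of 17921 genes tested, with 45.8% of genes called in either direction. The control libraries of the lines did not overlap for 10 of 10, against 81.5% of genes. LCT, TREH, ALPI and SLC15A1 did not pass the filter on low counts within HT-29 and were tested here through their Caco-2 counts. For them a lower value in HT-29 was favoured in advance, so the counts of 10 are a description. DPP4, at 33.0 RPKM by the shorter DPP4 length, and VIL1, at 31.2 RPKM, again led. They stood 5.20-fold (log2 -2.38 ± 0.06 SE, FDR = 2.89e-27) and 3.65-fold (log2 -1.87 ± 0.06 SE, FDR = 3.66e-24) below their Caco-2 levels. SI was 21.2-fold lower, MEP1A 55.3-fold, MGAM 7.48-fold, ANPEP 6.63-fold and TREH 2.21-fold. The TREH call was lost without Caco-2 control replicate 3 (log2 -0.995) or HT-29 control replicate 2 (log2 -0.89). LCT, ALPI and SLC15A1 were close to absent, with 1, 1 and 3 counts summed over the 3 HT-29 control libraries against 423, 1062 and 1038 in Caco-2. The corresponding ratios were 515 for LCT (95% exact counting interval 92.0 to 20401), 1294 for ALPI (232 to 51147) and 421 for SLC15A1 (144 to 2047), and these intervals cover counting error only. In HT-29 controls no other member than DPP4 and VIL1 exceeded a mean of 2.18 RPKM.

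**Figure D1:**
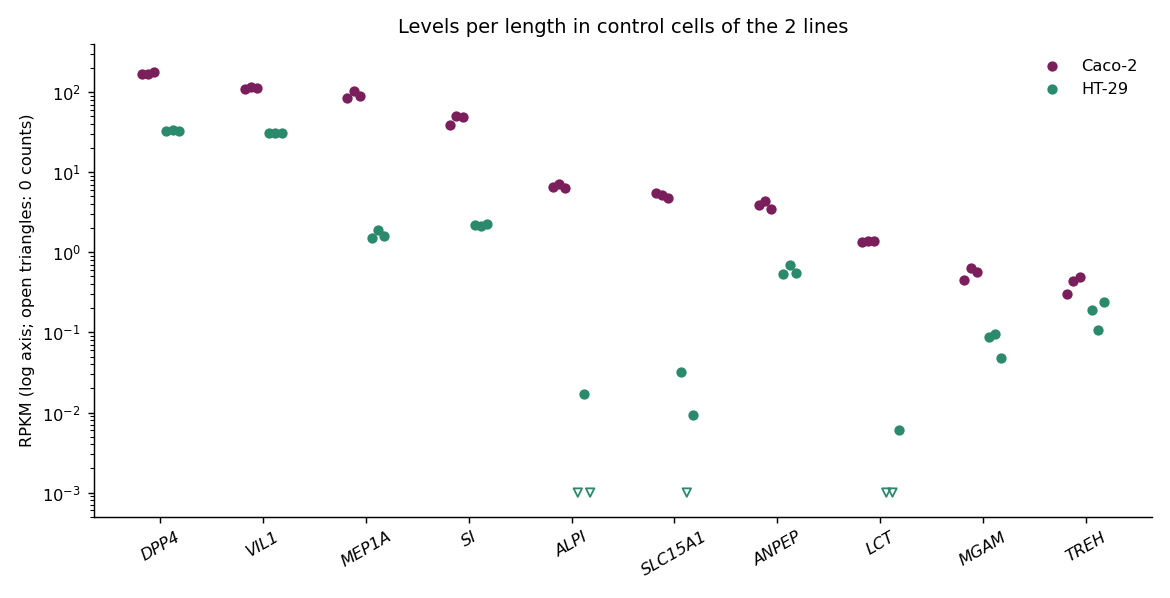
Level per transcript length (RPKM, log axis) of the 10 transcripts in the 3 control libraries of Caco-2 (purple) and HT-29 (green), 1 point per library and open triangles for libraries with 0 counts. Every HT-29 point lies below every Caco-2 point of the same gene, from DPP4 at 33.0 against 172 RPKM to LCT, ALPI and SLC15A1 near 0 counts.

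MGAM has a close relative beside it, MGAM2, which followed a different pattern between the lines. MGAM2 stood at 12.8 ± 0.769 CPM (SD, n = 3) in Caco-2 controls and at 88.4 ± 3.66 CPM in HT-29 controls, where MGAM was at 0.792 ± 0.266 CPM. In HT-29, MGAM2 was at 149 ± 2.78 CPM with CoCl2 and at 67.0 ± 1.11 CPM with OD (log2 0.76 and -0.40, neither past the fold threshold). How reads shared by the pair were assigned is not given in the sources used here, so the low MGAM counts carry that uncertainty. The placental-type relatives of ALPI, ALPP and ALPG, were at 3.29 and 2.73 CPM in Caco-2 controls, and ALPG rose with CoCl2 in Caco-2 (log2 1.02).

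In Caco-2 cells, CoCl2 lowered 3 disaccharidase transcripts and raised the peptide transporter. SI, LCT and TREH fell and SLC15A1 rose, so that 4 of the 10 passed the test, against 23.4% of 16034 genes tested; called lower were 3 of 10 against 14.2%, and called higher 1 of 10 against 9.13%. The median log2 change of the 10 was -0.60, beside -0.03 over all genes tested. CoCl2 and control libraries did not overlap for 8 of 10, against 69.0% of genes.

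SI read 246, 319 and 303 CPM in the 3 control libraries, 94.2, 131 and 119 CPM with CoCl2 and 198, 268 and 228 CPM with OD. All CoCl2 libraries lay below all control libraries, a 2.52-fold decrease (log2 -1.33 ± 0.11 SE, FDR = 2.83e-10), while the OD libraries overlapped the controls (log2 -0.32, 95% interval -0.55 to -0.09). LCT read 8.96, 9.19 and 9.14 CPM in control, 2.50, 3.42 and 3.73 CPM with CoCl2 and 11.2, 12.4 and 11.6 CPM with OD. Lactase thus fell 2.78-fold with CoCl2 (log2 -1.47 ± 0.17 SE, FDR = 3.53e-08), whereas each OD library lay above each control (log2 0.36 ± 0.14 SE, FDR = 0.0339), a difference under the fold threshold. MGAM was at 5.01, 6.91 and 6.30 CPM in control, at 3.75, 3.05 and 4.06 CPM with CoCl2 and at 4.92 to 6.14 CPM with OD. Its CoCl2 libraries did not overlap the controls, and the log2 value of -0.73 (FDR = 0.00176) was not past the fold threshold unless scaled by library size alone (log2 -1.05).

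Trehalase rested on few reads, 17, 21 and 23 counts in the controls, 5, 3 and 7 with CoCl2 and 11 in each OD library. It fell with CoCl2 (log2 -1.94 ± 0.44 SE, 95% interval -2.84 to -1.03, FDR = 0.000454), and the OD value was -0.86 (FDR = 0.0621). PHLDB1, whose exons overlap those of TREH, was at 45.3 ± 1.03 CPM in control and 26.1 ± 3.37 CPM with CoCl2 (log2 -0.80), and its part in the TREH counts was not tested. ALPI, the enterocyte alkaline phosphatase, was at 21.7 to 24.3 CPM in control, 15.4 to 18.1 CPM with CoCl2 and 19.6 to 22.4 CPM with OD, with log2 values of -0.47 (FDR = 0.000677) and -0.09 (FDR = 0.502).

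The 3 peptidases did not pass the test with either agent in Caco-2. DPP4 read 797, 794 and 861 CPM in control, 789, 854 and 867 CPM with CoCl2 and 1159, 1118 and 1075 CPM with OD. The CoCl2 libraries overlapped the controls (log2 0.03, 95% interval -0.11 to 0.18, and -0.29 by library size alone), while the OD libraries lay above them (log2 0.45 ± 0.07 SE, FDR = 1.27e-05). MEP1A read 255, 311 and 268 CPM in control, 307, 336 and 280 CPM with CoCl2 and 445, 465 and 455 CPM with OD. Its OD libraries stood clear of the other groups (log2 0.71 ± 0.08 SE, FDR = 1.11e-07), and its CoCl2 value was 0.15 (FDR = 0.120; -0.17 by library size alone). ANPEP ranged from 17.2 to 21.7 CPM in control, from 14.7 to 15.3 CPM with CoCl2 and from 13.7 to 18.3 CPM with OD, with log2 values of -0.38 and -0.29.

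SLC15A1 was the member with the largest positive change in Caco-2. It read 23.5, 22.6 and 20.6 CPM in control, 63.1, 71.2 and 61.6 CPM with CoCl2 and 85.0, 87.4 and 88.7 CPM with OD. The 3 groups did not overlap, and the transporter rose 2.93-fold with CoCl2 (log2 1.55 ± 0.09 SE, FDR = 1.68e-13) and 3.91-fold with OD (log2 1.97 ± 0.09 SE, FDR = 4.43e-15). With OD it was the only called member, 1 of 10 against 11.7% of genes called in either direction and 4.43% called higher, with 0 of 10 called lower against 7.27%. OD and control libraries did not overlap for 6 of 10 members, against 59.4% of genes, and the median log2 change of the 10 was 0.02, beside -0.02 over all genes. By library size alone TREH was called as well (log2 -1.01).

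The villin gene was not called with either agent in Caco-2. VIL1 read 776, 823 and 790 CPM in control, 465, 440 and 426 CPM with CoCl2 and 848, 876 and 884 CPM with OD. The CoCl2 libraries were below the controls, by -0.85 ± 0.07 SE on the log2 scale (FDR = 1.71e-10), short of the fold threshold at TMM scaling and past it at library size alone (-1.17). The OD value was 0.13 (FDR = 0.129; -0.03 by library size alone).

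**Figure D2:**
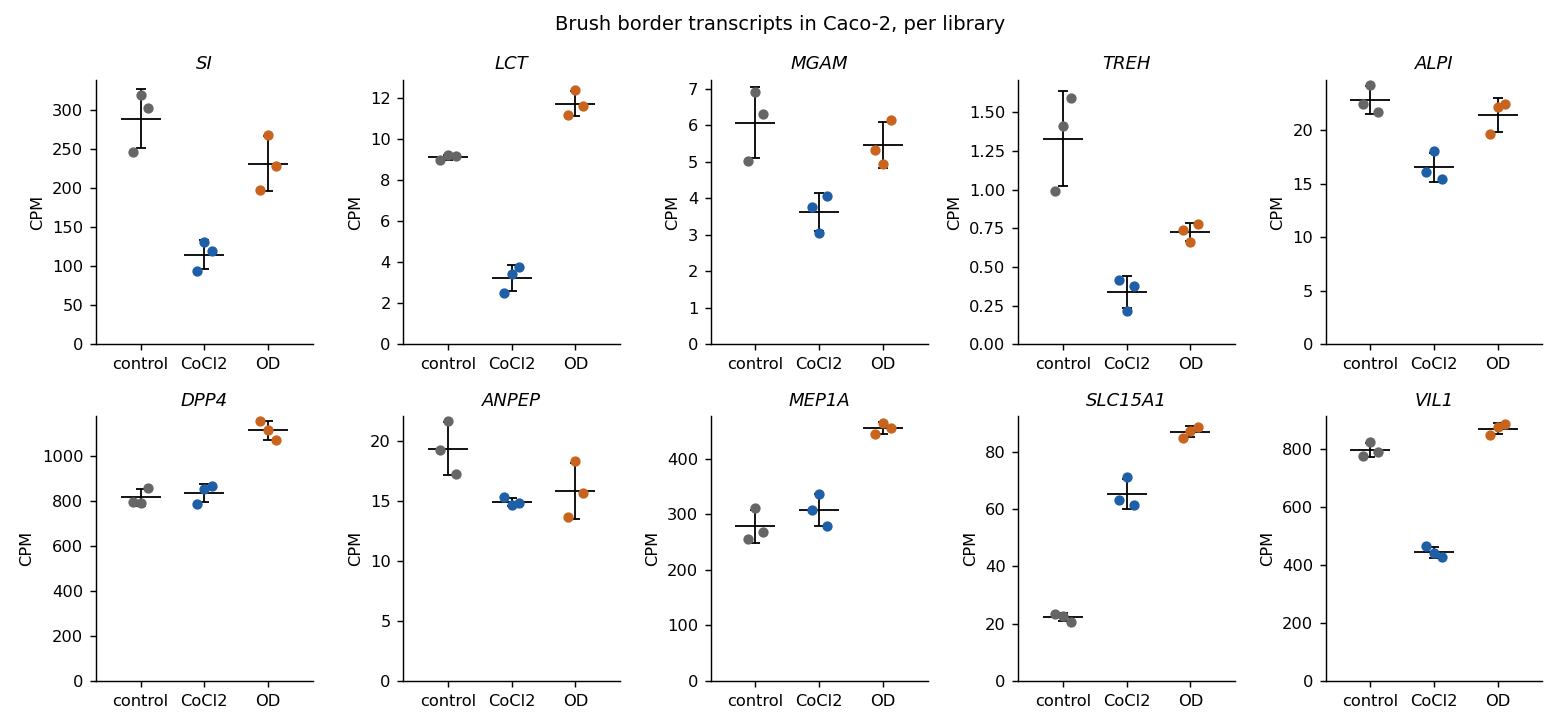
Each of the 10 transcripts in Caco-2 control, CoCl2 and OD libraries, in CPM scaled by TMM within the line; points are libraries, horizontal marks the mean and bars the SD of 3. SI, LCT and VIL1 are lowest with CoCl2, whereas SLC15A1 has means of 22.2, 65.3 and 87.0 CPM in control, CoCl2 and OD.

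In HT-29 cells the same 10 genes were measured at lower levels, and 6 of them (SI, MGAM, DPP4, ANPEP, MEP1A and VIL1) passed the filter on low counts. MGAM passed it only through its control libraries, where it was higher, and the counts and medians below include it. Both agents lowered villin and aminopeptidase N. With CoCl2, 2 of the 6 were called, both lower, against 41.3% of 15812 genes called in either direction, 23.9% called lower and 17.4% called higher; groups did not overlap for 5 of 6, against 83.2% of genes, and the median log2 change of the 6 was -0.64, beside -0.03 over all genes. With OD, 3 of the 6 were called, all lower, against 17.1% called, 7.57% called lower and 9.50% called higher, groups did not overlap for 6 of 6, against 71.1% of genes, and the median was -1.05, beside 0.01. By library size alone the calls, all lower, came to 5 of 6 with CoCl2 and to 4 of 6 with OD. Over all 15812 genes, those called lower then went from 3775 to 6250 with CoCl2 and from 1197 to 1596 with OD. Those called higher went from 2749 to 1295 and from 1502 to 1225.

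VIL1 read 208, 206 and 202 CPM in HT-29 control, 35.4, 30.1 and 35.1 CPM with CoCl2 and 88.3, 95.9 and 93.2 CPM with OD. The 3 groups were far apart next to the spread within each, and villin fell 6.13-fold with CoCl2 (log2 -2.62 ± 0.06 SE, FDR = 1.06e-23) and 2.22-fold with OD (log2 -1.15 ± 0.05 SE, FDR = 1.68e-16). Of the genes tested, 5.09% had a lower log2 change than VIL1 with CoCl2 and 5.90% with OD. The villin relatives moved in HT-29 as well: AVIL fell with both agents (log2 -2.17 and -2.14), and VILL fell with CoCl2 (-2.06; OD -0.64).

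ANPEP read 2.52, 3.23 and 2.52 CPM in HT-29 control, 1.12, 0.899 and 1.07 CPM with CoCl2 and 1.03, 0.931 and 1.06 CPM with OD. It fell to nearly the same level with both, by -1.41 ± 0.23 SE (FDR = 4.43e-06) and -1.43 ± 0.22 SE (FDR = 1.69e-06) on the log2 scale, from 39 to 67 counts per control library to 13 to 20 counts. MGAM, with 14, 18 and 13 counts in control, had 6, 7 and 7 with CoCl2 and 5, 5 and 3 with OD. The OD decrease passed the test (log2 -1.65 ± 0.42 SE, FDR = 0.00119). The CoCl2 value did not (log2 -0.58, 95% interval -1.38 to 0.22, FDR = 0.166), though by library size alone it did (log2 -1.21). MGAM could pass the filter on low counts only through its control libraries, so lower values with treatment were favoured in advance.

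SI read 12.8, 12.4 and 13.1 CPM in HT-29 control, 7.62, 8.50 and 7.41 CPM with CoCl2 and 6.67, 8.03 and 7.93 CPM with OD. Neither treated group overlapped the controls, and the log2 values of -0.70 (FDR = 1.12e-06) and -0.77 (FDR = 1.94e-07) were under the fold threshold. By library size alone SI was called with CoCl2 (log2 -1.34), and so was MEP1A with both agents (log2 -1.21 and -1.09). MEP1A was at 4.32 to 5.36 CPM in control, 2.91 to 3.53 CPM with CoCl2 (log2 -0.58) and 2.17 to 2.85 CPM with OD (log2 -0.95 ± 0.16 SE, FDR = 8.94e-06). The OD value passed the fold threshold when HT-29 control replicate 1, control replicate 3 or OD replicate 2 was left out (log2 -1.003, -1.01 and -1.07), and without OD replicate 2 the count of called members went from 3 to 5, with TREH entering the test through its control counts. DPP4 read 147, 151 and 145 CPM in control, 182, 190 and 195 CPM with CoCl2 and 122, 125 and 122 CPM with OD. Its log2 values were 0.35 ± 0.05 SE for CoCl2 (-0.28 by library size alone) and -0.26 ± 0.05 SE for OD.

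The other 4 members were near the detection limit in HT-29. TREH had 9, 6 and 19 counts in control, 0, 2 and 0 with CoCl2 and 4, 0 and 2 with OD, so that control exceeded CoCl2 11.3-fold (95% exact counting interval 2.89 to 96.7) and OD 5.19-fold (2.15 to 15.1) on pooled counts. TREH could pass the filter on low counts only through its control libraries; in a fit with no filter, edgeR called it lower with CoCl2 (FDR = 3.66e-05) and with OD (FDR = 0.000421). PHLDB1 fell in HT-29 with CoCl2 (159 ± 4.11 to 57.7 ± 5.75 CPM, log2 -1.47), its OD level was 138 ± 3.11 CPM (log2 -0.21), and its part in the TREH counts was not tested. LCT had 1, 2 and 0 counts summed over the control, CoCl2 and OD groups, ALPI 1, 4 and 4 and SLC15A1 3, 3 and 2. A count of 3 is 0.134 to 0.232 CPM of the library totals in HT-29, and no change of these 3 genes was detectable at this depth, including the rise of SLC15A1 measured in Caco-2.

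**Figure D3:**
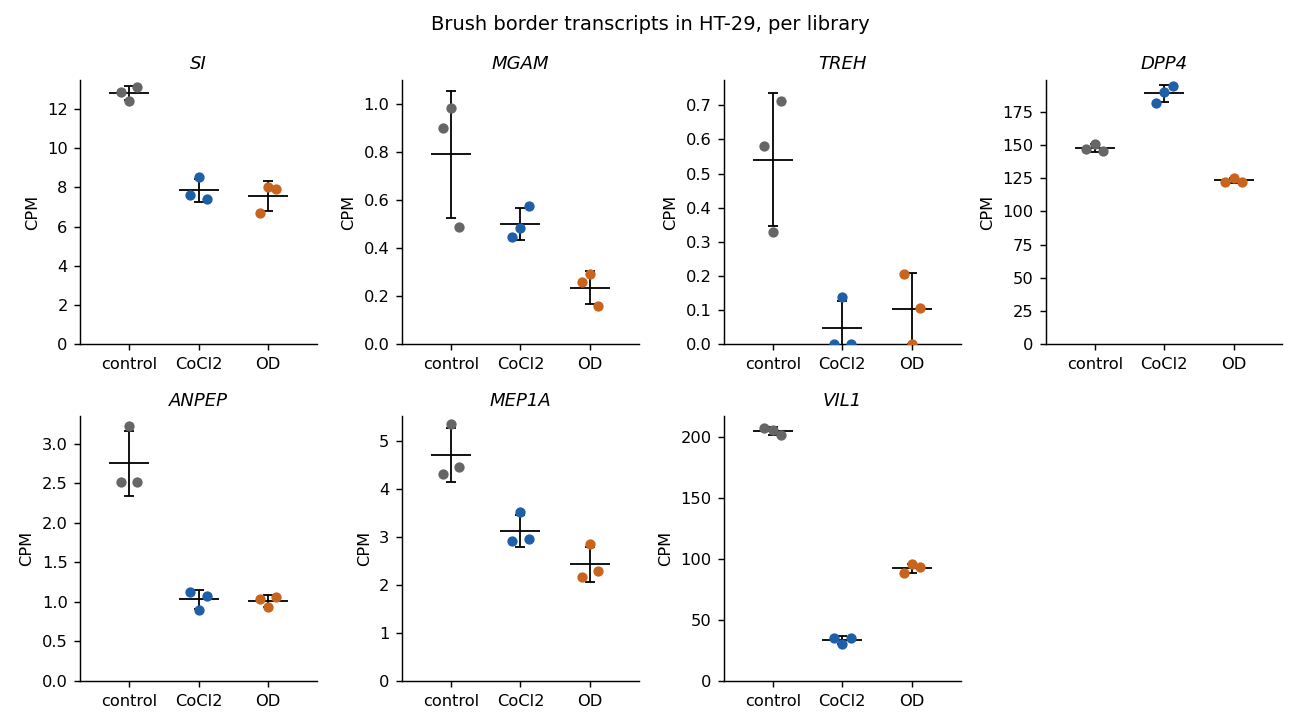
The 7 brush border transcripts with over 3 counts in every HT-29 control library, in CPM scaled by TMM within the line, per library with mean and SD of 3. TREH has 0 counts in some libraries of each agent. VIL1 has means of 205, 33.6 and 92.5 CPM in control, CoCl2 and OD, and ANPEP goes from 2.75 to 1.03 and 1.01 CPM.

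The 2 agents were also set against each other within each line, at a single dose each (300 µM and 5 µM) and the same time. In Caco-2, LCT (log2 -1.84 ± 0.16 SE, FDR = 1.64e-09) and SI (log2 -1.01 ± 0.11 SE, FDR = 7.63e-08) were lower with CoCl2 than with OD, 2 of 10 members against 6.44% of genes called lower and 11.7% called in either direction, and 0 of 10 were higher against 5.21%. The libraries of the 2 agents did not overlap for 9 of 10 members, against 52.8% of genes. The SI call was lost without CoCl2 replicate 1 (log2 -0.89) or without OD replicate 2 (log2 -0.89). VIL1, at -0.97 (FDR = 5.37e-11), gained a call without CoCl2 replicate 1 (log2 -1.01) or with no filter on low counts (log2 -1.002), and by library size alone VIL1 and TREH were called too (log2 -1.14 and -1.24). All 10 log2 values were negative, with TREH at -1.08 (FDR = 0.0662), MGAM at -0.58, MEP1A at -0.57, SLC15A1 and DPP4 at -0.42, ALPI at -0.38 and ANPEP at -0.09 (95% interval -0.35 to 0.17). In HT-29, VIL1 was lower with CoCl2 than with OD (log2 -1.46 ± 0.06 SE, FDR = 1.18e-17), 1 of 6 against 19.2% called lower and 29.9% in either direction, with 0 of 6 higher against 10.8%. The libraries did not overlap for 4 of 6 members, against 78.9% of genes. DPP4, MGAM and MEP1A had the opposite sign, with CoCl2 libraries above OD libraries for each: DPP4 stood at 0.62 ± 0.05 SE (FDR = 4.31e-12), under the fold threshold, MGAM at 1.07 ± 0.50 SE (FDR = 0.0553) and MEP1A at 0.37 (95% interval -0.01 to 0.76, FDR = 0.0712; -0.12 by library size alone). The intervals for SI (log2 0.06, -0.18 to 0.30) and ANPEP (log2 0.02, -0.57 to 0.61) included 0, and both values turned negative by library size alone (-0.43 and -0.47). LCT, TREH, ALPI and SLC15A1 did not pass the filter here.

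Whether the response differed between the lines was tested by an interaction term over all 18 libraries. For CoCl2, VIL1 (log2 difference, HT-29 minus Caco-2, -1.88 ± 0.09 SE, FDR = 4.18e-18) and ANPEP (-1.14 ± 0.27 SE, FDR = 0.000556) had the lower response in HT-29, 2 members against 13.8% of 17921 genes called lower and 21.6% in either direction, with none higher against 7.79%. For OD, VIL1 (-1.29 ± 0.09 SE, FDR = 3.82e-14), MEP1A (-1.68 ± 0.18 SE, FDR = 1.06e-09), MGAM (-1.51 ± 0.46 SE, FDR = 0.00778) and ANPEP (-1.16 ± 0.25 SE, FDR = 0.000240) had the lower response in HT-29, 4 members against 6.24% called lower and 15.2% in either direction, with none higher against 8.96%. The SI difference was 0.52 (FDR = 0.0191) for CoCl2 and -0.46 (FDR = 0.0296) for OD, both under the fold threshold. DPP4 differed by 0.21 (FDR = 0.0343) for CoCl2 and by -0.73 (FDR = 7.92e-09) for OD, also under it. For CoCl2, MEP1A stood at -0.83 (FDR = 0.000202; called by library size alone, at -1.04) and MGAM at 0.04 (95% interval -1.07 to 1.15; -0.15 by library size alone). The TREH intervals, -3.53 to 0.62 for CoCl2 and -2.97 to 0.08 for OD, included 0. For LCT, ALPI and SLC15A1 the HT-29 counts were too low for the term to have meaning, and it is not given.

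**Figure D4:**
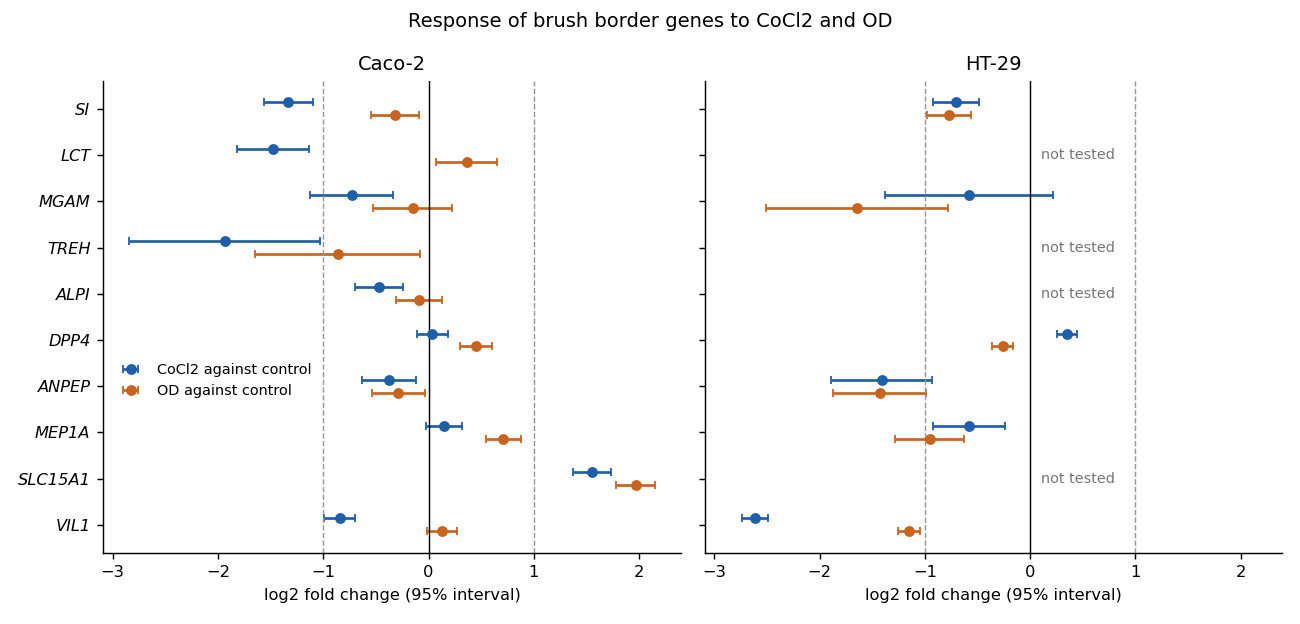
Log2 fold change against control, with 95% interval, of each transcript with CoCl2 (blue) and OD (orange) in Caco-2 and HT-29; dashed lines mark the fold threshold of 1. In Caco-2 VIL1 lies at -0.85 and 0.13, against -2.62 and -1.15 in HT-29, and DPP4 in HT-29 with CoCl2, drawn at 0.35, turns to -0.28 by library size alone.

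The other brush border hydrolases were called in part. Shares of all genes tested that were called in the same direction stand in brackets beside the counts. Of 15 listed, 9 were tested in Caco-2, of which 0 rose (9.13%) and 3 fell (14.2%) with CoCl2: ENPEP (aminopeptidase A, log2 -1.47), XPNPEP2 (an aminopeptidase P, -1.48) and ENPP7 (alkaline sphingomyelinase, -2.08). With OD 2 fell (7.27%), ENPEP (-1.27) and ASAH2 (neutral ceramidase, -1.01), and 1 rose (4.43%), PLB1 (phospholipase B, 1.70). In HT-29, 4 were tested and 0 rose with either agent. There 2 fell with CoCl2 (23.9%), ENPEP (-2.46) and PLB1 (-1.33), and 1 with OD (7.57%), ENPEP (-1.61). PLB1 rested on few reads, 8 to 18 counts per control library and 2 to 4 with CoCl2. DESeq2 called 1 lower with CoCl2. With CoCl2 the list's median log2 change was -0.59 in Caco-2 (OD -0.38) and -0.83 in HT-29 (OD -0.34).

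The 17 other genes of microvillus structure were all tested in Caco-2, where few were called. With CoCl2, 1 rose (9.13%) and 1 fell (14.2%). EZR (ezrin, which links actin to the membrane) rose by 1.02 on the log2 scale. TMIGD1 fell by 1.66 on few reads, from 8 to 14 counts per control library to 3 to 4. With OD 0 of 17 were called by edgeR (DESeq2 called 0). On an edgeR FDR under 0.05 alone, whatever the fold change, 11 of 17 passed, beside 8084 of 16034 genes. In HT-29, of 16 tested, 0 rose (17.4%) and 3 fell (23.9%) with CoCl2: ESPN (espin, an actin bundler, -3.83), PDZK1 (an apical scaffold, -2.46) and MYO1A (brush border myosin I, -2.33). With OD, 2 fell (7.57%) and 3 rose (9.50%): MYO1A (-1.77) and PDZK1 (-1.35) fell, whereas the protocadherins of the links between microvillus tips, CDHR2 (2.47) and CDHR5 (1.57), and MYO5B (1.09) rose. PLS1 (fimbrin), the other main bundler beside villin and espin, ranged from -0.22 to 0.30 over the 4 comparisons and was called in none of them.

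Apical transporters moved in both directions beside SLC15A1. Of 14 tested in Caco-2, 3 rose (9.13%) and 5 fell (14.2%) with CoCl2, among them SLC2A5 (the fructose carrier GLUT5, 2.25), SLC11A2 (the iron carrier DMT1, 1.51) and SLC10A2 (the ileal bile acid carrier, -2.60). With OD 4 rose (4.43%) and 1 fell (7.27%), with SLC2A5 at 1.84, SLC36A1 (a proton-coupled amino acid carrier) at 1.72 and SLC10A2 at -1.67. In HT-29, of 11 tested, 2 rose (17.4%) and 4 fell (23.9%) with CoCl2, and 2 rose (9.50%) and 1 fell (7.57%) with OD, where DESeq2 called 2 lower. NPC1L1 (the cholesterol carrier) rose with both agents (2.68 and 3.54), and SLC11A2 rose with CoCl2 (1.63). SLC3A1 (a subunit of the cystine carrier) rose with OD (1.21) on few reads, from 4 to 10 counts per control library to 9 to 23. The control libraries of NPC1L1 and of SLC3A1 would not alone have passed the filter on low counts, so their rises were favoured in advance. SLC7A9, the other subunit of the cystine carrier, fell with both agents (-2.88 and -1.47). Its counts went from 18 to 46 per control library to 0 to 6 with CoCl2 and 7 to 12 with OD. SLC7A9 too would not have passed the filter without its control libraries, so lower values with treatment were favoured in advance. SLC46A1 (the intestinal folate carrier, -2.68) and SLC9A3 (a sodium-proton exchanger, -1.87) fell with CoCl2. The list had median log2 changes with CoCl2 of -0.71 (Caco-2) and -0.06 (HT-29), and with OD of -0.15 and 0.15.

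The transcription factors listed for the enterocyte went both ways between the control lines: of 13 tested, 6 were lower in HT-29 (24.2%), among them GATA4, CDX2 (-3.50) and HNF4A (-2.55), and 4 were higher (21.6%), CDX1, HNF4G (3.13), KLF4 (1.60) and KLF5 (1.57). With treatment, 12 were tested in Caco-2, where 1 rose (9.13%) and 1 fell (14.2%) with CoCl2 and 2 rose (4.43%) with OD: ELF3 rose with both agents (2.00 and 1.02), KLF4 rose with OD (1.71) and GATA4 fell with CoCl2 (-1.38); CDX2 was at 0.93 and 0.09. In HT-29, of 11 tested, 4 fell (23.9%) and 1 rose (17.4%) with CoCl2: CDX1 (-2.43), CDX2 (-1.46), HNF4G (-1.42) and PDX1 (-2.36) fell and ELF3 rose (1.83). With OD 0 were called by edgeR (DESeq2 called 0). On an edgeR FDR under 0.05 alone, whatever the fold change, 9 of 11 passed, beside 10876 of 15812 genes. HNF4A was not called in any of the 4 comparisons against control, at -0.62 in HT-29 with CoCl2. The part of these factors in the members' changes was not tested.

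Markers of other epithelial types moved too in HT-29. Of 6 goblet markers tested, 5 fell with CoCl2 (23.9% of all genes) and 3 with OD (7.57%), and their summed level went from 83.6 to 90.1 CPM in control to 32.2 to 42.8 CPM and 47.3 to 48.7 CPM. Of 3 stem cell markers tested, 3 and 2 fell (23.9% and 7.57%), LGR5 by 3.06 and 2.60 on the log2 scale, and LGR5 fell in Caco-2 as well (by 2.11 and 1.66). Of 4 enterocyte markers tested, 1 rose (17.4%) and 1 fell (23.9%) with CoCl2 and 2 rose (9.50%) and 0 fell with OD, where DESeq2 called 1 higher. KRT20, a keratin of mature cells, rose in HT-29 with both agents (321 ± 11.4 CPM in control, 755 ± 11.9 with CoCl2 and 842 ± 91.3 with OD), while FABP1 fell with CoCl2 (-1.20) and APOA1 rose with OD (1.40, from 1 to 9 counts per control library to 10 to 17). Of 3 enteroendocrine markers tested, 2 fell with CoCl2 (23.9%) and 3 with OD (7.57%), and CEACAM7, the colonocyte marker tested, rose with OD (2.77). In Caco-2, of 10 enterocyte markers, APOA4 (2.22) and APOC3 (1.07) rose and APOB (-1.89) and FABP2 (-1.27) fell with CoCl2, 2 each way (9.13% and 14.2%), with a list median of 0.42. With OD, APOA4 (1.31) and KRT20 (1.49) rose (4.43%) and 0 fell, with a median of 0.23. Of 3 colonocyte markers tested in Caco-2, 0 were called with CoCl2 (median -0.24), while GUCA2A (1.39) and CEACAM7 (1.56) rose with OD (4.43%, median 1.39). In the same line, 3 of 4 stem cell markers fell with CoCl2 (14.2%) and 1 with OD (7.27%), 1 of 4 goblet markers, ZG16, rose with each agent (9.13% and 4.43%), and no enteroendocrine marker passed the filter. The part of these shifts in the VIL1 and ANPEP values was not tested.

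**Figure D5:**
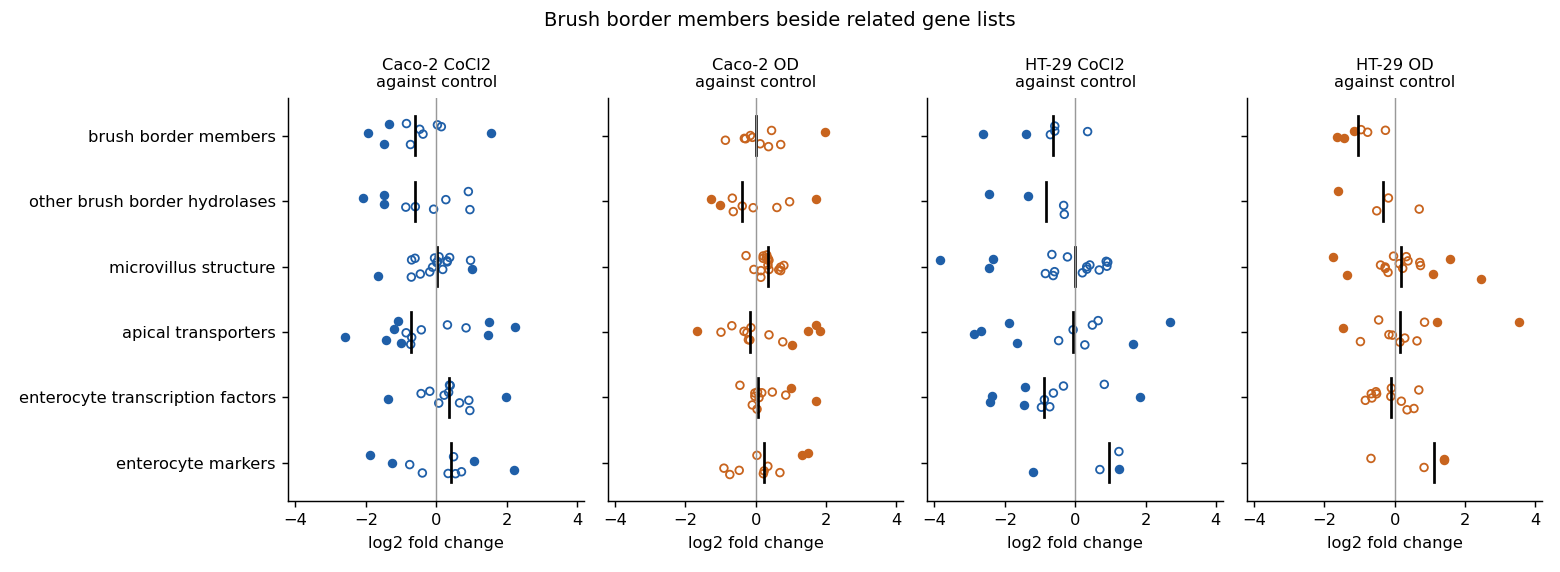
Log2 fold change against control of the tested brush border members and of 5 related gene lists in the 4 comparisons; each point is a gene, filled where called, and black bars are list medians. Member medians, from left to right, are -0.60, 0.02, -0.64 and -1.05, and called genes lie on both sides of 0 among apical transporters in all 4 comparisons.

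Genes with the response pattern closest to that of VIL1 and SI were sought over the 4 log2 changes among 9259 genes, by Euclidean distance. TMEM139 was closest to VIL1 (distance 0.285), with log2 changes for CoCl2 of -1.02 (Caco-2) and -2.59 (HT-29) and for OD of 0.31 and -1.28. HPGD (0.363), the prostaglandin-degrading dehydrogenase, and CDC42EP1 (0.466) came next. TCTA (0.298), LRR1 (0.326) and BORCS7 (0.350) were closest to SI. The comparisons within a line share their control libraries, so a small distance is a description of these values.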

How the data were processed

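Messenger RNA was measured in 18 libraries (2 lines, control, CoCl2 or OD, 3 biological replicates); the small RNA libraries of the series were not used here. The authors deposited raw counts per gene and a table of log2 RPKM values. Their reads came from a stranded kit and were, per the labels and methods, checked with FastQC 0.11.9, trimmed with cutadapt 2.10 and aligned with STAR 2.7.5b to GRCh38.p13; the counting tool and its strand setting are not given in the sources used here. From the deposited counts, genes were filtered by expression, scaled by TMM and tested with edgeR 4.0.16 (quasi-likelihood F test, R 4.3.3), 9 libraries per line for treatments and 18 for comparisons between lines, with a Benjamini-Hochberg FDR under 0.05 and an absolute log2 fold change over 1 as the call. CPM values use TMM sizes within a line; RPKM values use TMM sizes over 18 libraries and gene lengths recovered from the deposited log2 table (for TREH, from GENCODE). That table adds a pseudocount, which understates changes of low genes; DESeq2 1.42.0 and limma 3.58.1 served as alternatives. The fit was tested on simulated data. All 10 members are named in every comparison. From each other list, up to 3 of the highest and 3 of the lowest called genes are named, along with paralogs and transcription factors; PLS1 and the genes overlapping members were chosen after their values were seen. The members, lists and tests were chosen with earlier results of these data known. Replicate numbers did not mark pairs (correlations of -0.0554 to 0.0676). P-values measure the spread between these samples. Depth was 12925719 to 22332639 counts per library.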

Additional observations from a re-analysis of the deposited data

Results flagged for a closer look

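Responses of 4 brush border genes differed between HT-29 and Caco-2 in the interaction test of edgeR. Called were 2 of 10 for CoCl2, near the 21.6% of 17921 genes called, and 4 of 10 for OD, against 15.2%. The 10 include LCT, ALPI and SLC15A1, whose HT-29 counts were too low for the term to have meaning. For CoCl2 the log2 difference, HT-29 minus Caco-2, was -1.88 for VIL1 (FDR = 4.18e-18) and -1.14 for ANPEP (FDR = 0.000556). For OD it was -1.29 for VIL1 (FDR = 3.82e-14), -1.68 for MEP1A (FDR = 1.06e-09), -1.51 for MGAM (FDR = 0.00778) and -1.16 for ANPEP (FDR = 0.000240). Culture state differs between the lines and cannot be told apart from them. Groups of 3 are too small to look for single outlying samples.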

How the results depend on the processing

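Called on FDR alone, whatever the fold change, genes in Caco-2 came to 10370 (CoCl2), 8084 (OD) and 7957 (CoCl2 against OD) of 16034 tested. In HT-29 they came to 13097, 10876 and 12286 of 15812. Of 17921 genes tested over both lines, 14175 were called between control lines, and 8916 and 7682 for the line differences of CoCl2 and OD. The members called were then 8, 5 and 8 of 10 in Caco-2 (CoCl2, OD, CoCl2 against OD), 5, 6 and 2 of 6 in HT-29. For the CoCl2 line difference they were 5. These member counts are to be read beside the shares of all genes just given. By library size alone, members called went to 4 (from 2) for CoCl2 against OD and to 2 (from 1) for OD in Caco-2, and to 5 (from 2) for CoCl2 in HT-29, since composition is then not scaled out. That setting reversed DPP4 with CoCl2 (-0.29 and -0.28 in the 2 lines), MEP1A with CoCl2 in Caco-2 (-0.17), VIL1 with OD in Caco-2 (-0.026), ANPEP (-0.47), MEP1A (-0.12) and SI (-0.43) for CoCl2 against OD in HT-29, and MGAM in the CoCl2 line difference (-0.15). It also moved the share of called genes that were higher from 39.1% to 19.7% and from 37.9% to 23.3% for CoCl2 and OD in Caco-2, from 42.1% to 17.2% and from 55.7% to 43.4% in HT-29, and from 44.7% to 28.3% (Caco-2) and 36.0% to 12.9% (HT-29) between agents and 36.0% to 23.2% for the CoCl2 line difference. With no filter, ANPEP for CoCl2 against OD in HT-29 reversed (-0.034).

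When limma-trend was run on the authors' log2 values, whose pseudocount shrinks low genes, the genes called were 1098, 381 and 341 in Caco-2 (CoCl2, OD, CoCl2 against OD) and 2520, 744 and 1455 in HT-29. Members called were 2 and 0 for CoCl2 against control and against OD in Caco-2, and 1 each for CoCl2 and OD in HT-29; lost were LCT (-0.70 and -0.90), SI against OD (-0.98) and ANPEP in HT-29 (-0.39 for each agent), while TREH is not listed in that table and MGAM is listed at 0 there in every HT-29 library, so neither could be called. DPP4 with CoCl2 in Caco-2 (-0.0037), ANPEP (-0.0070) and SI (-0.0061) for CoCl2 against OD in HT-29 changed sign. Leaving out 1 replicate moved the members called from 2 to between 1 and 2 for CoCl2 against OD in Caco-2 (1 without Caco-2 OD replicate 2) and from 3 to between 4 and 5 for OD in HT-29 (5 without HT-29 OD replicate 2), where TREH or MEP1A joined. Values that changed sign in those fits ranged from -0.28 to 0.25 for MGAM in the CoCl2 line difference, from -0.18 to 0.028 for ANPEP between agents in Caco-2, and from -0.045 to 0.12 for ANPEP and -0.019 to 0.11 for SI between agents in HT-29. With DESeq2 no count of all genes or of members called moved by over 1.5 times; among the other lists, 3 of the counts given against control did, all in HT-29, and stand beside them.

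The replicate numbers share only a number. A replicate block gave 3737 and 6520 genes called for CoCl2 against control in the 2 lines, and it changed no call of a member. Depth limits LCT, ALPI, SLC15A1 and TREH in HT-29.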
